A study of Mus musculus with 8 samples.

Results

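A set of 9 genes of cyclic AMP (cAMP) signaling was followed in soleus (SOL) RNA of MI4KO and flox mice, chosen by name as the table rows of Pde4a, Pde4b, Pde4d, Prkaca, Prkar1a, Prkar2a, Creb1, Crem and Crtc2. They are 9 of 24054 rows, and all 9 were among the 11865 genes tested, which reached a value of 1 or more in 4 mice or more. MI4KO mice (4 mice) carry floxed Irf4 alleles together with Myl1-Cre, so that deletion of this interferon regulatory factor is directed to skeletal muscle, while other cells within the muscle keep the gene. Flox mice (4 mice) carry the floxed alleles without Cre. All 8 were male C57BL/6 animals, for which the labels record a high-fat diet and no age, and each gave 1 stranded poly(A) library from whole SOL. Within a group, the mice are called 1 to 4 by rising animal number of the labels, and these numbers do not pair mice between groups.

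In muscle, catecholamines bind beta-adrenergic receptors, the stimulatory G protein activates adenylyl cyclase, and the cAMP it makes releases the catalytic subunit of protein kinase A (PKA) from its regulatory subunits. Phosphodiesterases of the PDE4 family end the signal by hydrolysing cAMP. In the nucleus, PKA phosphorylates CREB, and the coactivator CRTC2 enters the nucleus when its own phosphorylation falls. This pathway is known in muscle for driving glycogen breakdown and the transcription of genes such as Ppargc1a and the Nr4a receptors. None of the 9 genes encodes a receptor, a G protein or a cyclase, and those parts of the pathway were read from separate gene lists.

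None of the 9 genes differed detectably between MI4KO and flox SOL. By limma, 0 of the 9 were called at the limits of a fold change of 1.5 or more in either direction and an unadjusted p under 0.05, where 26 of all 11865 genes were (0.219%). At an unadjusted p under 0.05 alone, limma again called 0 of the 9, against 399 of all genes (3.36%), and edgeR and DESeq2 on the recovered reads also called 0 of the 9 at that limit. At a Benjamini-Hochberg adjusted p under 0.05, limma called 0 of the 9 and 0 of all genes (0%). MI4KO and flox values overlapped for each of the 9, while 246 of all genes (2.07%) had groups that did not overlap. The 95% confidence interval of each of the 9 fold changes lay within 1.5-fold in both directions, the widest being that of Pde4b, from 0.719 to 1.16. The median log2 fold change was -0.01 over the 9 genes and -0.01 over all genes tested, and the median absolute log2 fold change was 0.04 and 0.07, respectively.

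CREB and CREM bind the cAMP response element, so the promoters of the genes were searched for its full form TGACGTCA and for its shorter form TGACG, which reads CGTCA on the other strand and lies within the full form. RefSeq promoter sequences of GRCm38.p6, from 250 bases before to 50 bases after each gene start, matched 7 of the 9 genes with 18 promoters. Crem and Crtc2 were not matched. The full form was present in 2 of these promoters, which overlap and belong to Prkar1a, and in 588 of all 32851 promoters (1.79%). The shorter form, on either strand, was present in 7 of the 18 promoters and in 20.8% of all promoters. Those 7 promoters belong to 5 of the 7 genes. A gene with more promoters, such as Prkar1a with 6, has more chances of a match, so the gene count is not comparable with that share. The windows below are shown because they hold the element nearest a RefSeq start of each of these 5 genes, or for Prkar1a the full form. All are on the plus strand, and capitals mark the motif. Starts are those of RefSeq, and a gene can have more than 1. Prkaca has 2 promoters, of which 1 holds the shorter form. The RefSeq starts used for Prkar1a (109650949), Prkar2a (108692143), Pde4a (21184101) and Pde4b (102421555) lie inside the gene positions given for them below.
Prkar1a, chr11:109650880-109650927, motif 49 bases before a start: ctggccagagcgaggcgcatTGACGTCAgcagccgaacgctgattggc
Prkaca, chr8:83972952-83972996, motif 6 bases before the start: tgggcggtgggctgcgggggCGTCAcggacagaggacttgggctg
Prkar2a, chr9:108692119-108692163, motif 4 bases before the start: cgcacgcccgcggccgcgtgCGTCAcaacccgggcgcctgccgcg
Pde4a, chr9:21184031-21184075, motif 50 bases before a start: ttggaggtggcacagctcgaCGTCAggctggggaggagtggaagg
Pde4b, chr4:102421501-102421545, motif 34 bases before a start: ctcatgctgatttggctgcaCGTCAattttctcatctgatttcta
These matches are descriptions of letters, and no binding was measured in this series.

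Before the values, the libraries and the deleted gene are described. Recovered reads per library ran from 13916450 to 16137925 for flox mice and from 13417512 to 16384565 for MI4KO mice. Irf4 was at 1.35 ± 0.451 TMM-normalized CPM in the flox and 0.715 ± 0.324 in the MI4KO group (SD, n = 4 each), on 4 to 23 reads per mouse. Its log2 fold change was -0.45 (standard error 0.20). By limma this had p = 0.0402 before and p = 1.0 after Benjamini-Hochberg adjustment, and the two-sided exact permutation p was 0.114. The groups overlapped through flox mouse 1, whose Irf4 value of 0.686 was below those of MI4KO mice 1, 2 and 4 (0.725, 0.840 and 1.03). Summed slow-fiber markers were high in every mouse, between 32196 and 42353. MI4KO mouse 3 stood apart by a summed glucocorticoid-response list of 1116, against 278.3 to 398.7 in the other mice, with 10 of 10 genes highest there, and by neutrophil markers (5.45 against 0.312 to 0.975). This mouse also had the highest value of the 8 mice for 30.9% of all genes tested. Flox mouse 1 stood apart by hepatocyte markers (115.0 against 0.133 to 0.763, 8 of 8 genes highest there). MI4KO mouse 1 had the lowest sums of endothelial markers (237.7 against 316.0 to 378.9), of smooth muscle and pericyte markers (140.4 against 201.6 to 280.5), of fibroblast markers (110.2 against 146.7 to 230.3) and of adipocyte markers (10.7 against 17.6 to 47.2). The endothelial sums of MI4KO mice 2 to 4 (317.8, 333.5 and 328.0) were also below those of flox mice 2 to 4 (360.8, 378.9 and 378.2). Flox mouse 1 was at 316.0. Summed fast IIb fiber markers ran from 237.0 to 3466 and spanned both groups.

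The PDE4 genes encode the cAMP-specific phosphodiesterases. Pde4a lies on chromosome 9 of GRCm38 from 21165714 to 21213248 in the GENCODE M21 annotation, Pde4b on chromosome 4 from 102087543 to 102607259 and Pde4d on chromosome 13 from 108449948 to 109953461, all on the plus strand. Pde4a was at 51.3, 56.7, 59.3 and 57.2 in flox mice 1 to 4 and at 48.2, 49.9, 52.5 and 68.8 in MI4KO mice 1 to 4, in TMM-normalized CPM. The MI4KO mice thus held both ends of the range, with 3 of them below 3 of the flox mice and MI4KO mouse 4 above all. The means were 56.1 ± 3.39 and 54.8 ± 9.46 (SD, n = 4 each), a log2 fold change of -0.05 (standard error 0.11, 95% interval -0.27 to 0.18). The two-sided exact permutation p of Pde4a was 0.771.

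Pde4b, the member of the family most studied in inflammation, was at 25.2, 37.9, 25.5 and 33.5 in flox mice 1 to 4 and at 26.3, 32.6, 20.4 and 32.1 in MI4KO mice 1 to 4. Values near 25 and values above 32 occurred in both groups, and MI4KO mouse 3 was the lowest of all. The means were 30.5 ± 6.23 and 27.9 ± 5.72 (SD, n = 4 each), with a log2 fold change of -0.13 (standard error 0.16, 95% interval -0.48 to 0.22, exact permutation p = 0.600). Leaving out MI4KO mouse 3 brought the log2 fold change of Pde4b to 0.01.

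Pde4d, whose protein is one of the main PDE4 enzymes of heart and skeletal muscle, was at 219.9, 189.0, 189.8 and 202.7 in flox mice and at 199.1, 168.7, 287.3 and 199.1 in MI4KO mice. MI4KO mouse 3 was far above the other 7 mice, and MI4KO mouse 2 was the lowest. The means were 200.3 ± 14.5 and 213.5 ± 51.2 (SD, n = 4 each), with a log2 fold change of 0.07 (standard error 0.13, 95% interval -0.22 to 0.35, exact permutation p = 0.80). Leaving out MI4KO mouse 3 brought the log2 fold change of Pde4d to -0.09, so this mouse decided its direction. The same mouse had the raised glucocorticoid-response sum, whose part in the Pde4d value was not tested.

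**Figure D1:**
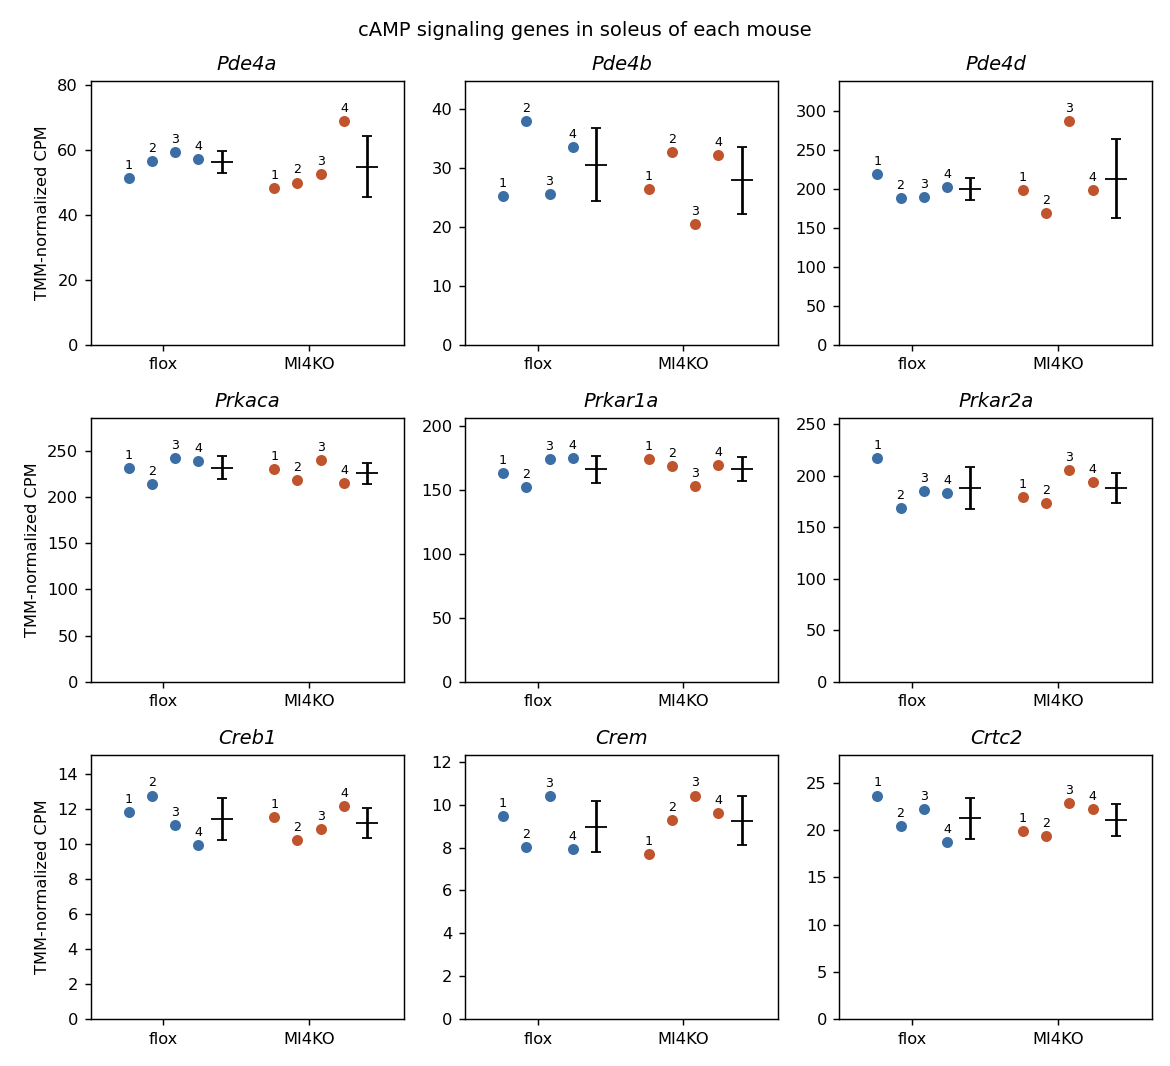
TMM-normalized CPM (y axis, starting at 0) of the 9 genes in each flox and MI4KO mouse, with mouse numbers beside the points and the mean ± SD of 4 mice as black bars. The groups overlap in every panel, and MI4KO mouse 3 is highest for Pde4d (287.3) and lowest for Pde4b (20.4).

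PKA is a tetramer of regulatory and catalytic subunits. Prkaca, which encodes the catalytic subunit alpha, lies on chromosome 8 from 83972993 to 83996443, Prkar1a, for the type I regulatory subunit alpha, on chromosome 11 from 109649405 to 109669656, and Prkar2a, for the type II regulatory subunit alpha, on chromosome 9 from 108689314 to 108750436, all on the plus strand. Prkaca was at 231.4, 214.1, 241.9 and 239.2 in flox mice and at 230.0, 218.1, 239.9 and 215.6 in MI4KO mice. Mice near 215 and near 240 were present in both groups. The means were 231.6 ± 12.5 and 225.9 ± 11.2 (SD, n = 4 each), with a log2 fold change of -0.04 (standard error 0.07, 95% interval -0.19 to 0.11, exact permutation p = 0.571).

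Prkar1a was at 163.2, 152.0, 174.1 and 174.4 in flox mice and at 173.8, 168.7, 153.0 and 169.2 in MI4KO mice, so that each group had 1 mouse near 152 and the others above 163. The means of Prkar1a were 165.9 ± 10.6 and 166.2 ± 9.10 (SD, n = 4 each), with a log2 fold change of 0.0028 (standard error 0.07, 95% interval -0.15 to 0.16, exact permutation p = 0.914). Prkar2a was at 216.7, 168.6, 184.7 and 183.4 in flox mice and at 179.7, 173.3, 205.0 and 193.8 in MI4KO mice. Flox mice 1 and 2 held both ends of its range. The means of Prkar2a were 188.3 ± 20.3 and 187.9 ± 14.2 (SD, n = 4 each), with a log2 fold change of -0.0003 (standard error 0.09, 95% interval -0.19 to 0.19, exact permutation p = 0.971).

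Creb1 encodes the transcription factor CREB, Crem its relative with activating and repressing isoforms, which gene-level values do not separate, and Crtc2 the coactivator that CREB recruits. Creb1 lies on the plus strand of chromosome 1 from 64532645 to 64604548, Crem on the minus strand of chromosome 18 from 3266048 to 3337748 and Crtc2 on the plus strand of chromosome 3 from 90254163 to 90264125. Creb1 was at 11.8, 12.8, 11.1 and 9.91 in flox mice and at 11.5, 10.2, 10.8 and 12.1 in MI4KO mice, with the extremes of the range both in flox mice. The means of Creb1 were 11.4 ± 1.21 and 11.2 ± 0.839 (SD, n = 4 each), with a log2 fold change of -0.02 (standard error 0.10, 95% interval -0.24 to 0.20, exact permutation p = 0.829).

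Crem was at 9.48, 8.05, 10.4 and 7.94 in flox mice and at 7.69, 9.31, 10.4 and 9.61 in MI4KO mice, and the highest flox and MI4KO values were nearly equal. The means of Crem were 8.97 ± 1.2 and 9.26 ± 1.15 (SD, n = 4 each), with a log2 fold change of 0.04 (standard error 0.12, 95% interval -0.22 to 0.30, exact permutation p = 0.829). Crtc2 was at 23.7, 20.5, 22.2 and 18.7 in flox mice and at 19.9, 19.4, 22.9 and 22.2 in MI4KO mice, again with both extremes in flox mice. The means of Crtc2 were 21.3 ± 2.15 and 21.1 ± 1.72 (SD, n = 4 each), with a log2 fold change of -0.01 (standard error 0.10, 95% interval -0.22 to 0.20, exact permutation p = 0.943). The Benjamini-Hochberg adjusted p by limma was 1.0 for each of the 9 genes. Adding 1 before taking log2 draws fold changes of weakly expressed genes, such as Crem and Creb1, toward 0.

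**Figure D2:**
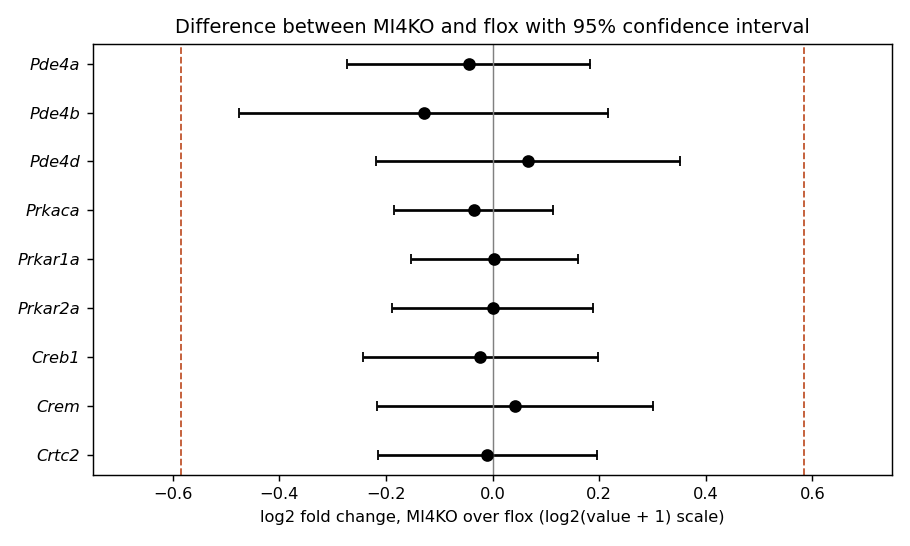
log2 fold change of MI4KO over flox (x axis) for each of the 9 genes (y axis), with points for the limma estimate, bars for its 95% confidence interval and dashed lines at a fold change of 1.5 in each direction. Every interval crosses 0 and lies between the dashed lines.

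The precision behind these values differed among the genes. Crem rested on 106 to 159 reads per mouse and Creb1 on 136 to 201, so that counting alone gives a coefficient of variation of about 8.6% and 7.73%, next to a measured coefficient over the 8 mice of 12% and 8.58%. Prkaca rested on 3086 to 3711 reads, with a counting error of 1.72% and a measured coefficient of 5.0%. For Pde4b, on 307 to 546 reads, the measured coefficient was 19.6% against 4.81% from counting. For Pde4d the measured coefficient was 24.0% in MI4KO mice and 7.22% in flox mice, against 1.81% from counting.

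How evenly the genes were expressed from mouse to mouse also varied. Among the PKA subunits, the SD of log2(value + 1) over the 8 mice was at percentile 4.49 of all genes tested for Prkaca, 7.86 for Prkar1a and 33.1 for Prkar2a. Among the PDE4 genes it was at percentile 56.1 for Pde4a, 78.3 for Pde4d and 89.0 for Pde4b. Each percentile is a description of these 8 mice, and the genes tested differ in read number.

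Compared per kilobase of the longest coding transcript, the mean level over the 8 mice was highest for Prkaca (100.5 ± 5.03 TMM-normalized CPM per kilobase, SD, n = 8). Next came Pde4d (49.2 ± 8.45), Prkar1a (47.3 ± 2.61) and Prkar2a (37.9 ± 3.27), of which each had a range that overlapped those of the others. Pde4a (11.9 ± 1.42) was followed by Crtc2 (7.71 ± 0.657) and Pde4b (6.78 ± 1.33), whose ranges overlapped, and then by Crem (3.11 ± 0.375) and Creb1 (1.35 ± 0.116). The place of Pde4d depended on the length used: per kilobase of merged exons it was at 17.2 ± 2.96, below Prkar1a (38.4 ± 2.12) and Prkar2a (29.5 ± 2.54), with no overlap. Pde4d has 12 coding transcripts in the annotation, and the deposited values do not say which were expressed.

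Ratios of 2 genes within a library do not depend on how libraries are scaled, and they are given as a description. Prkaca over the sum of Prkar1a and Prkar2a lay between 0.594 and 0.674 in the 8 mice (0.655 ± 0.0308 in flox and 0.638 ± 0.0322 in MI4KO mice, SD, n = 4 each). Prkar1a over Prkar2a was 0.753 in flox mouse 1 and 0.746 in MI4KO mouse 3, and the other mice had ratios of 0.873 to 0.974. These are the mice that stood apart by hepatocyte markers and by the glucocorticoid-response list, whose part in this ratio was not tested. Pde4d over Pde4b was 14.1 in MI4KO mouse 3, against 4.99 to 8.73 elsewhere, since that mouse had the highest Pde4d and the lowest Pde4b. Crem over Creb1 ran from 0.630 to 0.963, with both groups spread over the range.

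**Figure D3:**
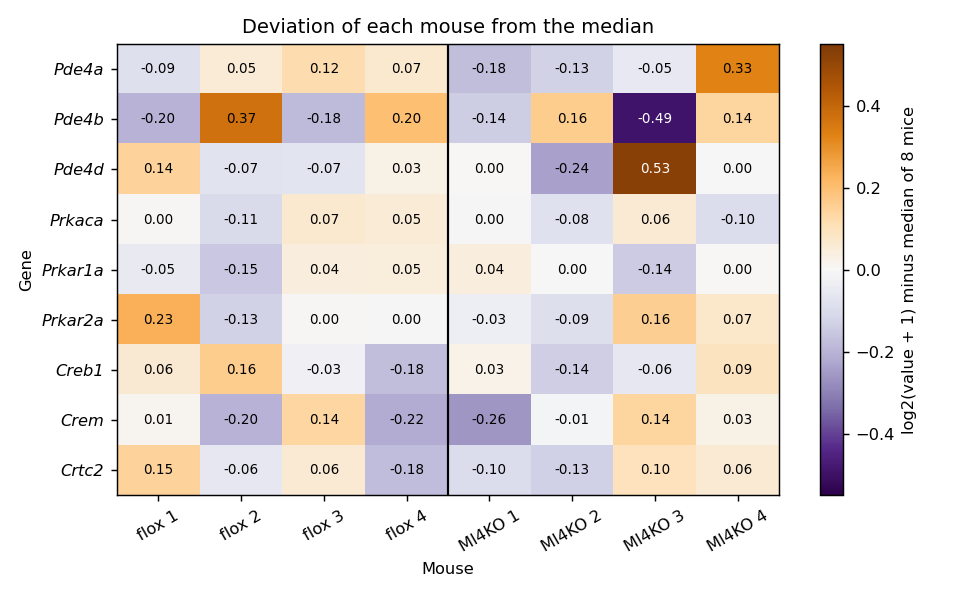
Deviation of each mouse (x axis) from the median of the 8 mice, in log2(value + 1), for each of the 9 genes (y axis), with flox mice left and MI4KO mice right of the line. The strongest cells are those of MI4KO mouse 3, at 0.53 for Pde4d and -0.49 for Pde4b, and the rows of Prkaca and Prkar1a stay between -0.15 and 0.07.

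The genes whose profile over the 8 mice lay nearest to that of Pde4b, the gene with the largest spread of the 9, were Cxcl14, Itih5 and Prss12. Their mean absolute difference from Pde4b, each gene centered on its own mean in log2(value + 1), was 0.08 for each, where the median over 11856 genes was 0.27. Cxcl14, a chemokine, was at 25.8, 33.9, 24.3 and 29.2 in flox mice and at 25.2, 27.0, 20.01 and 30.2 in MI4KO mice. Chosen by its likeness to Pde4b, it was like that gene lowest in MI4KO mouse 3 and highest in flox mouse 2. Prss12 had the same extremes. Itih5 was also lowest in MI4KO mouse 3 but highest in MI4KO mouse 4 (27.6). The order of likeness was computed over 8 mice only and carries no test.

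The rest of the pathway was read from 10 lists of 90 genes, of which 75 were tested. In limma with all 8 mice, 0 of the 75 passed the limits of fold change and unadjusted p, 0 had an adjusted p under 0.05, and 2 (2.67%) had an unadjusted p under 0.05, against 3.36% of all genes tested. edgeR and DESeq2 also gave 2 at that unadjusted limit and 0 at an adjusted p under 0.05. With 1 mouse left out, a single gene passed the limits in 3 of the 8 fits, which was Ppargc1a without flox mouse 1, Fos without flox mouse 4 and Nr4a1, a nuclear receptor named after its values were seen, without MI4KO mouse 3. In these 3 fits, 34 of 11797, 18 of 11780 and 31 of 11812 of all genes tested passed the limits, respectively. With all 8 mice, the log2 fold change was positive for 26 and negative for 49 of the 75, with a median of -0.05. The median over all genes tested was also below 0, at -0.01. MI4KO mouse 3 had the highest value of the 8 mice for 25 of the 75 (33.3%), against 30.9% of all genes tested. MI4KO mouse 1 had the lowest value for 32 of the 75 (42.7%), against 19.0% of all genes tested. MI4KO mouse 1 was also the mouse with the lowest endothelial, smooth muscle, fibroblast and adipocyte sums, whose part was not tested. In whole SOL, fewer cells of a type and less RNA per cell cannot be told apart.

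Of 9 adrenergic receptors, which bind catecholamines, 4 were tested and none had an unadjusted p under 0.05 in limma. Adrb1 had 7 reads and Adrb3 had 6 reads over all 8 mice. Adra1d was at a log2 fold change of 0.04 and Adra2b of -0.23 (standard errors 0.21 and 0.15).

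Arrb1, which encodes beta-arrestin 1, an adaptor that uncouples receptors from G proteins, was the tested gene of the 10 lists with the smallest p. It was at 11.7, 12.5, 11.4 and 11.1 in flox mice and at 8.2, 9.63, 8.18 and 10.6 in MI4KO mice. Every MI4KO mouse was below every flox mouse. The log2 fold change was -0.33 (standard error 0.10, unadjusted exact permutation p = 0.0286, the smallest that 4 against 4 mice allow), but the adjusted p of Arrb1 by limma was 1.0, so it did not pass the correction over all genes. With each mouse left out in turn, the log2 fold change of Arrb1 lay between -0.39 and -0.28. Gnai2, an inhibitory G protein subunit, was the other gene of the 75 with groups that did not overlap, singled out after its values were seen (flox mice 95.9 to 104.3, MI4KO mice 78.0 to 94.8), so that 2 of 75 did so (2.67%) against 2.07% of all genes.

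Adcy2, an adenylyl cyclase, was at 68.3, 65.7, 70.4 and 78.3 in flox mice and at 85.2, 70.9, 113.1 and 81.0 in MI4KO mice. MI4KO mouse 3 was again the highest and MI4KO mouse 2 lay within the flox range. The log2 fold change of Adcy2 was 0.29 (standard error 0.12, adjusted p = 1.0 by limma, exact permutation p = 0.0571) and 0.16 without MI4KO mouse 3. Among the G proteins, Gnas, which encodes the stimulatory alpha subunit, averaged 1626 and 1581 in flox and MI4KO mice, at a log2 fold change of -0.04 (standard error 0.08). Gnal was at a log2 fold change of 0.17 and Gnai1 of -0.32 (standard errors 0.19 and 0.18). Among receptor kinases, Grk5 was at a log2 fold change of 0.22 (standard error 0.12), and Grk2 averaged 81.4 and 81.9. Adcy7 was the tested cyclase with the lowest log2 fold change, -0.12 (standard error 0.22).

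Of 13 other phosphodiesterases of cAMP, 11 were tested, from Pde7b at a log2 fold change of 0.04 to Pde8b at -0.31 (standard errors 0.10 and 0.16). Of 6 other PKA subunits and inhibitors, 5 were tested. Pkia, the muscle inhibitor of the catalytic subunit, was at 345.2 in flox and 352.0 in MI4KO mice, Pkig was at a log2 fold change of 0.03 and Prkar2b of -0.27. Of 14 A-kinase anchoring proteins, which tether PKA, 11 were tested, from Akap1, of the mitochondrial outer membrane, at 0.07 to Akap12 at -0.21. Of the other cAMP effectors, all 5 were tested, from Popdc3 at 0.03 to Popdc2 at -0.23, and Bves averaged 58.5 and 57.7 in flox and MI4KO mice. None of the tested genes in these 4 lists had an unadjusted p under 0.05 in limma with all 8 mice. With 1 mouse left out, some of them did, and they are among the counts given below.

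Around CREB, 8 further family members, coactivators and salt-inducible kinases were tested, from Sik1 at a log2 fold change of 0.28 to Crtc1 at -0.22 (standard errors 0.28 and 0.12). Sik1, a kinase that phosphorylates the CRTC proteins and is itself a CREB target, was at 32.3, 31.4, 34.2 and 25.5 in flox mice and at 24.4, 27.2, 81.6 and 36.4 in MI4KO mice. MI4KO mouse 3 was far above the other 7 mice, MI4KO mouse 4 was just above the flox range, and without MI4KO mouse 3 its log2 fold change was -0.08. Sik3, of the same kinase family, averaged 53.8 and 55.6. Of 12 cAMP-inducible targets, 10 were tested, from Ppargc1a, the coactivator of mitochondrial biogenesis, at 0.38 to the immediate early gene Fos at -0.52 (standard errors 0.32 and 0.36). Ppargc1a was at 76.7, 28.5, 37.7 and 32.9 in flox mice and at 45.6, 35.1, 101.2 and 48.8 in MI4KO mice, so the mice that stood apart, flox mouse 1 and MI4KO mouse 3, were its highest. Its log2 fold change was 0.68 without flox mouse 1, past the limits but not at an adjusted p under 0.05, and 0.07 without MI4KO mouse 3. Fos was at 29.1, 31.6, 20.9 and 11.3 in flox mice and at 6.38, 17.8, 16.1 and 25.1 in MI4KO mice, with wide overlap, and its log2 fold change was -0.82 without flox mouse 4, past the same limits, and -0.16 without MI4KO mouse 1. Ucp3, an uncoupling protein of muscle mitochondria, was at 140.4 ± 16.6 and 144.1 ± 56.0 (SD, n = 4 each), with MI4KO mouse 3 highest. None of the tested genes in these 2 lists had an unadjusted p under 0.05 in limma with all 8 mice.

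**Figure D4:**
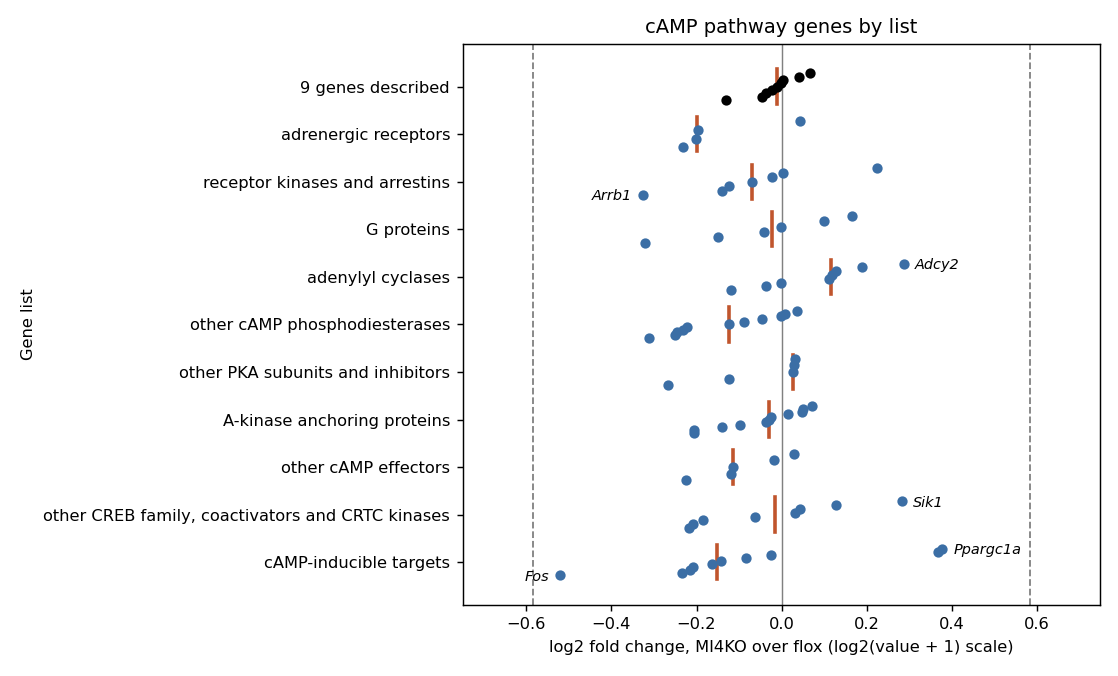
log2 fold change of MI4KO over flox (x axis) for the 9 genes (black) and for the tested genes of the 10 pathway lists (blue, y axis), with the median of each list as an orange bar and dashed lines at a fold change of 1.5. All points lie between the dashed lines, and the 9 genes lie closer to 0 than the most distant genes of the lists, Ppargc1a (0.38) and Fos (-0.52).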

How the data were processed

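SOL RNA of 4 MI4KO and 4 flox mice was analysed, with groups taken from the labels. The authors made stranded poly(A) libraries, aligned the reads with Bowtie2 2.1.0 to UCSC transcripts, estimated expression per gene with RSEM 1.2.15 (the submitters' processing notes name mm10) and normalized it by TMM (trimmed mean of M-values). The deposited signal is 1 TMM-normalized CPM value per gene and mouse. The authors also deposited a fold-change score, a p-value and an FDR per gene, which were not used. Of 24054 rows, 6086 had no read in any mouse. In steps of its library, 100% of non-zero values were whole reads (tolerance 0.1 read). A count of 3 reads corresponds to 0.181 to 0.225, and read counts cover counting error only. The chi-square per degree of freedom between pairs of libraries was 6.39 to 56.0, so none was taken for a duplicate.

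limma 3.58.1 (R 4.3.3) with a mean-variance trend was run on log2(value + 1) for genes that reached a value of 1 or more in 4 mice or more, with Benjamini-Hochberg adjustment over all genes tested. Exact two-sided permutation tests (scipy 1.17.1) used the 8 log2 values. Alternatives were edgeR 4.0.16 and DESeq2 1.42.0 on the recovered reads, another pseudocount, no filter, other scalings, no trend, the range of animal numbers as a covariate and each mouse left out in turn. Leaving out flox mouse 1 and MI4KO mouse 3 together, and the alternatives for the pathway lists, were added after seeing the data. The scripts were tested on simulated data.

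The 9 genes and all lists were chosen with earlier results of these data known. Named genes are the 9, Irf4, for each pathway list the tested genes with the highest and lowest log2 fold change, those with an unadjusted p under 0.05 and the one with the highest mean, and the 3 genes nearest in profile to the most variable of the 9. A gene that this rule names is not reported here. Positions and lengths are from GENCODE M21 (GRCm38) and promoters from RefSeq (GRCm38.p6). Gastrocnemius samples were not analysed here.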

Additional observations from a re-analysis of the deposited data

How the results depend on the processing

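None of the 9 genes passed the limits of fold change and unadjusted p, an unadjusted p under 0.05 or an adjusted p under 0.05 under any alternative run. The smallest unadjusted p of any of the 9 in limma, 0.0724 for Pde4a, came without MI4KO mouse 4 (Benjamini-Hochberg adjusted p = 0.956), and the smallest adjusted p by limma, edgeR or DESeq2 was 0.944. All 9 confidence intervals lay within 1.5-fold in every limma setting run. The signs of such small differences did not hold: 12 of 72 values under the other settings changed sign. Under the range of animal numbers as a covariate, Pde4a was at 0.0137 and Prkar1a at -0.0070. Under library-size scaling, Prkaca was at 0.0083, Prkar2a at 0.0438, Creb1 at 0.0171 and Crtc2 at 0.0325. Under median-of-ratios scaling, Prkar2a was at 0.0202 and Crtc2 at 0.0099. With edgeR, Prkar2a was at 0.0109 and Crtc2 at 0.0019, and with DESeq2 at 0.0133 and 0.0042. These scalings moved the median log2 fold change of all genes to at most 0.03.

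With each mouse left out in turn, 20 values changed sign, none of them for Prkaca. The log2 fold changes ran from -0.1573 to 0.0111 for Pde4a, from -0.2118 to 0.0062 for Pde4b, from -0.0856 to 0.1694 for Pde4d, from -0.0731 to -0.0140 for Prkaca, from -0.0383 to 0.0418 for Prkar1a, from -0.0512 to 0.0688 for Prkar2a, from -0.0836 to 0.0282 for Creb1, from -0.0130 to 0.1191 for Crem and from -0.0664 to 0.0416 for Crtc2. Without flox mouse 1 and MI4KO mouse 3 together, Pde4d was at -0.0401, Prkar2a at 0.0262, Creb1 at 0.0080 and Crtc2 at 0.0033. The causes of these sign changes were not tested. No paired analysis was possible because the animal numbers are not shared between groups.

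Over all genes, the count past the limits was 26, and it was 41 with a pseudocount of 0.5, 65 with edgeR and 51 with DESeq2, which use no pseudocount of this kind, and 18 to 57 with each mouse left out (57 without MI4KO mouse 4). At an adjusted p under 0.05 the count was 0 or 1 with each mouse left out, the 1 being Hist2h3c2 without MI4KO mouse 2, and 0 in limma, edgeR and DESeq2 with all mice, where 399, 363 and 248 genes had an unadjusted p under 0.05. Over the pathway lists, the count at an unadjusted p under 0.05 was 2 in the main limma fit with all mice (2.67%, against 3.36% of all genes). With no filter it was 4 of 86 (4.65% against 3.53%). With library-size scaling it was 3 of 75 (4.0% against 3.32%), with Grk5 beside Arrb1 and Adcy2. Without the trend it was 2 (2.67% against 4.01%), Arrb1 and Grk5, without Adcy2. With each mouse left out it was 1 to 12. It was 5 of 74 (6.76%) without flox mouse 1, where 3.71% of all genes had such a p. It was 1 without flox mouse 2 (1.35%, against 3.06% of all genes), flox mouse 3 (1.35% against 2.19%) or MI4KO mouse 1 (1.33% against 2.70%). Without MI4KO mouse 4 it was 9 of 74 (12.2% against 5.21%), 8 of them lower in MI4KO mice. Without MI4KO mouse 3 it was 12 of 74 (16.2% against 5.0%), all 12 lower in MI4KO mice. Without flox mouse 1 and MI4KO mouse 3 together it was also 12 of 74 (16.2% against 5.36%), 11 of them lower. None of these pathway genes had an adjusted p under 0.05. Depth limits Crem and Creb1 most, where counting error was close to the spread between mice.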

Other observations

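The animal numbers fall into a lower range (1 flox and 2 MI4KO mice) and a higher range (3 flox and 2 MI4KO mice). Within the lower and the higher range, the difference in log2(value + 1) between MI4KO and flox means was -0.26 and 0.30 for Pde4d, 0.21 and -0.31 for Pde4b, and -0.30 and 0.16 for Prkar2a. It had the same sign in both ranges for Prkaca only (-0.05 and -0.02). The lower range holds a single flox mouse, mouse 1, the one with hepatocyte markers, and whether the numbers mark a batch is not given in the labels.

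Of the cAMP-inducible nuclear receptors, a pair was singled out after its values were seen. Nr4a3 was at 10.8 in MI4KO mouse 3, against 0.437 to 4.11 elsewhere. Nr4a2, which fell below the filter, was at 7.25 in that mouse, against 0.508 to 1.04 elsewhere. Nr4a1 was at 138.7 in MI4KO mouse 3, at 34.2 and 35.9 in MI4KO mice 1 and 2, and between 47.4 and 87.9 in the other mice.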
